A study of Mus musculus with 4 samples.

Results

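The troponin genes of mouse muscle stem cell cultures are described here, 8 of the 32285 genes in the deposited count matrices: Tnnt1, Tnnt2, Tnnt3, Tnnc1, Tnnc2, Tnni1, Tnni2 and Tnni3. They were taken by symbol, and each symbol was found once. The cells came from skeletal muscle of MyoD-KI mice, a line whose muscle stem cells report MyoD through the red protein tdTomato, and had spent 5 days in growth medium with serum. A cell sorter took those labelled MyoD-tdTomato high, and their transcripts were counted cell by cell with droplets, barcodes and reads of the 3-prime end. A low population named in the labels is not analysed here. There is 1 group of 4 samples, labelled replicates 1 to 4, all of the same genotype and treatment. The sort restricts the data to cells with a strong reporter signal, and neither the age nor the number of animals is given in the sources used here.

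Troponin is the calcium switch of the thin filament. Troponin T anchors the complex to tropomyosin, troponin C binds calcium, and troponin I holds actin and myosin apart until calcium arrives. Each subunit has isoforms named for the adult muscle in which they prevail. Tnnt1 and Tnni1 are the slow skeletal forms, Tnnt3, Tnnc2 and Tnni2 the fast skeletal forms, and Tnnt2 and Tnni3 the cardiac forms. Tnnc1 serves both slow skeletal and cardiac muscle. Tnnt2 is also known from embryonic and regenerating skeletal muscle, where several isoforms are made together before fibre types are set.

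The genes of troponin I and troponin T lie in neighbouring pairs. On the GENCODE M21 annotation of GRCm38, Tnni1 (ENSMUSG00000026418, chromosome 1, 135779434 to 135810989) lies 25.4 kb before Tnnt2 (ENSMUSG00000026414, chromosome 1, 135836354 to 135852260). Tnni2 (ENSMUSG00000031097, chromosome 7, 142441808 to 142444410) lies 54.4 kb before Tnnt3 (ENSMUSG00000061723, chromosome 7, 142498836 to 142516009). Tnni3 (ENSMUSG00000035458, chromosome 7, 4518305 to 4524229) and Tnnt1 (ENSMUSG00000064179, chromosome 7, 4504570 to 4516382) are separated by 1.92 kb on the minus strand. The genes of troponin C stand alone, with Tnnc1 (ENSMUSG00000091898) on chromosome 14, 31208312 to 31211729, and Tnnc2 (ENSMUSG00000017300) on chromosome 2, 164777161 to 164779967. All 8 are protein-coding.

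To show the sequence next to which Tnnt1, Tnnt2, Tnni1, Tnnc1 and Tnnc2 are transcribed, stretches before their start sites are printed from RefSeq (GRCm38.p6). The stretches are printed as far as they lie outside annotated exons. Those of Tnnt2 and Tnnc1 lie before the whole gene as GENCODE places it. Those of Tnnt1, Tnnc2 and Tnni1 lie before a RefSeq start that is inside the GENCODE gene, so they are intronic for its longer transcripts. Of the 8 genes, 6 had an entry. Tnnt3 and Tnni2 are named only, and Tnni3 is not printed because it was nearly silent. Capitals mark 3 kinds of motif searched on both strands: the E-box CANNTG, which MyoD and myogenin can bind, the MCAT motif CATTCC of TEAD factors, and the MEF2 motif.
Tnnt1, chr7:4516005-4516225, minus strand: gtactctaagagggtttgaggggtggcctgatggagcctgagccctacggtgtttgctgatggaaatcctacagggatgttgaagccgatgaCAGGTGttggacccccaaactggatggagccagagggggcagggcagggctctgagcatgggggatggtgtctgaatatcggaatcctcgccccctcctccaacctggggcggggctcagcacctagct
Tnnt2, chr1:135836084-135836333, plus strand: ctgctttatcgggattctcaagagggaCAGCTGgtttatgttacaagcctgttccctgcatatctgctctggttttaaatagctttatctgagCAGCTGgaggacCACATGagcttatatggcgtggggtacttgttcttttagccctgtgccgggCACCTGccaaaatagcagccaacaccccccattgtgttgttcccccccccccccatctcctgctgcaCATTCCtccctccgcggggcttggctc
Tnni1, chr1:135799171-135799401, plus strand: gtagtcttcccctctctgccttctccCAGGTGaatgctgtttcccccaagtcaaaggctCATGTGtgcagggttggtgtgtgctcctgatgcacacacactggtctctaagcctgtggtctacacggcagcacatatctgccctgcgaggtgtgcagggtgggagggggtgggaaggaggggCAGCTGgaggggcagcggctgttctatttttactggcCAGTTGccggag
Tnnc1, chr14:31208062-31208311, plus strand: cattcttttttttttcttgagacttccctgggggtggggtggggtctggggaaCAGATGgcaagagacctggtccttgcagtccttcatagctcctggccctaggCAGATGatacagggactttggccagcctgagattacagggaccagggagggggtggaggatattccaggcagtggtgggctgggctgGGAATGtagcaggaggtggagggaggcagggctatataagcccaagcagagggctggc
Tnnc2, chr2:164779742-164779867, minus strand: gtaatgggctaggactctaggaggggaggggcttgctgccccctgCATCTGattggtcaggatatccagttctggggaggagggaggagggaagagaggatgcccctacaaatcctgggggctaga
The printed Tnnt2 and Tnni1 stretches held 4 E-boxes each, that of Tnnc1 held 2, and those of Tnnt1 and Tnnc2 held 1 each. An MCAT motif was present in the Tnnt2 and Tnnc1 stretches, and the MEF2 motif in 0 of the 5. Among all 32851 RefSeq windows of 250 bases before a start site, 66.2% held an E-box, 12.6% an MCAT motif and 1.69% a MEF2 motif. The printed stretches of Tnnc2 (126 bases), Tnnt1 (221) and Tnni1 (231) are shorter, and the full Tnnc2 window held 2 E-boxes. These shares give no background for the number of E-boxes in a stretch. A match describes the letters only.

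The 4 files were not independent. Pairs of files shared 5946 to 5965 barcodes, 99.9% of the smaller file, and in a sample of 500 cells 99.8% to 100% had their highest correlation across files with the same barcode, against 20 different ones. The files are therefore counted as repeat libraries of 1 set of cells (n = 1), no p-value is given, and ranges over files measure library sampling only. Totals ran from 62627341 to 68898900 UMIs per file. Of 5944 barcodes in all files, 5481 were kept, with a median of 11049 UMIs per file. Each value has an exact 95% interval, Poisson for levels and binomial for shares and folds, taken at the average count of a single file. The intervals cover counting error only, not variation between cells, animals or cultures. UMIs of 1 cell are not independent, so intervals that lie apart do not by themselves separate groups of cells.

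Among the cell type markers, the muscle genes Myog, Des and Myod1 were the most abundant. Myod1 stood at 507 CPM (UMIs scaled to a total of 1000000), Myog at 1803, Des at 1165 and Pax7 at 57.1. The 8 cardiac markers summed to 2.68 CPM, of which Gata4 made up 1.88, with Nppb, Myl7 and Tbx5 at 0 in every file. Endothelial markers summed to 1.89 CPM and immune markers to 0.925. The 4 fibroblast markers summed to 111 CPM, of which Col3a1 made up 110, with Pdgfra at 0.499 and Lum at 0.0115. Of the smooth muscle list, Myh11 was at 0.302, Cnn1 at 0.100 and Lmod1 at 2.77, beside Tagln at 25.7 and Smtn at 57.2. Between the lowest and highest Acta1 plus Myh3 bins described below, the fibroblast sum went from 164 to 20.1 CPM, the sum of 5 smooth muscle markers from 37.0 to 227 and the cardiac sum from 2.83 to 3.29. Their part in the troponin levels was not tested.

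All troponins but Tnni3 were transcribed together, in all 3 classes: slow, fast and cardiac. The 8 genes made up 6235 CPM, or 0.624% of all UMIs, of which troponin T contributed 4187, troponin C 1116 and troponin I 932. Each captured transcript counts once whatever its length, so levels are compared as UMIs. Protein was not measured, and shares of transcripts need not be shares of protein. Where intronic reads were counted, which the sources do not say, long genes such as Tnni1 gain over short ones such as Tnni2.

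Among the transcripts of the subunit that anchors the complex, those of fast Tnnt3 were the most abundant, at 1742, 1740, 1749 and 1750 CPM in replicates 1 to 4. Slow Tnnt1 followed with 1330, 1327, 1329 and 1329 CPM, and cardiac Tnnt2 with 1109, 1105, 1121 and 1116. No file of 1 gene reached any file of another, and the counting intervals (1735 to 1755, 1320 to 1337 and 1105 to 1121) lay apart. Both describe library sampling of the same cells only. As shares of troponin T, Tnnt3 made up 41.7% (interval 41.5% to 41.9%), Tnnt1 31.7% and Tnnt2 26.6%.

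Transcripts of the calcium-binding subunit were mostly of the slow and cardiac form. Tnnc1 had 815, 809, 814 and 818 CPM in replicates 1 to 4, and fast Tnnc2 304, 302, 299 and 303. Tnnc2 thus held 27.1% of troponin C (interval 26.7% to 27.4%).

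Transcripts of the inhibitory subunit had the same balance over all cells. Slow Tnni1 had 670, 676, 683 and 683 CPM and fast Tnni2 252, 251, 253 and 252, so that Tnni2 held 27.0% of troponin I (26.7% to 27.4%). Cardiac Tnni3 was at 2.37, 2.57, 2.28 and 2.57 CPM, resting on a mean of 161 UMIs per file, and held 0.262% of troponin I. Tnni3 therefore stood far below Tnnt2, the other gene named for the heart.

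**Figure D1:**
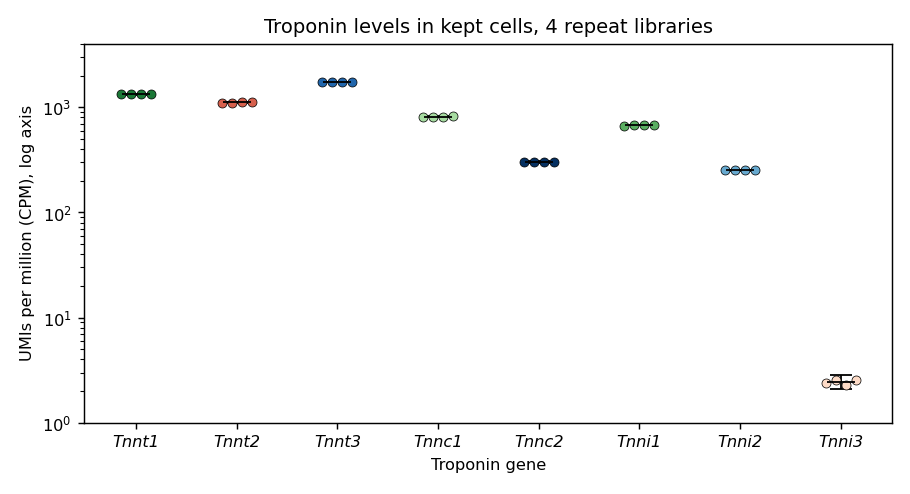
Levels of the 8 troponin genes in 5481 kept cells. Points are the 4 repeat libraries, the bar is their mean and whiskers are the exact Poisson interval at the mean count; the axis is logarithmic. Points of a gene nearly coincide, from Tnnt3 at 1745 CPM down to Tnni3 at 2.45 CPM.

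Detection in single cells was read at equal depth, after each cell had been thinned to 5000 UMIs per file (5197 cells; 284 shallower cells left out). Tnnt3 was found in 81.4% of cells (interval 80.3% to 82.5%), Tnnt1 in 79.9%, Tnnt2 in 59.4%, Tnni2 in 52.2%, Tnnc1 in 51.4%, Tnni1 in 47.7% and Tnnc2 in 30.3%. Without thinning these shares were 88.9%, 86.9%, 70.5%, 67.6%, 63.5%, 56.4% and 38.9%. Tnni2 was found in more cells than Tnni1 although its level was lower, and no order of these genes is read from shares of cells. Of cells with Tnnt1 in 1 file, 92.1% also had it in another, and of those with Tnni2 72.2%. For Tnni3, detected in 0.957% of cells, the figure was 27.9%.

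The order of onset was described along measures that the troponins do not enter. Cells were placed in 6 bins by their CPM of Acta1 plus Myh3, which encode the skeletal alpha-actin and the embryonic myosin heavy chain of new sarcomeres. The bins were below 100 CPM (1432 cells), 100 to 300 (1422), 300 to 1000 (478), 1000 to 3000 (522), 3000 to 10000 (872) and 10000 or more (471). A second set of 6 bins used Myog, the myogenin gene that marks entry into differentiation. Median depth per file before thinning was 11197 UMIs in the lowest and 12382 in the highest Acta1 plus Myh3 bin, and mitochondrial UMIs were 3.40% and 4.07%. Their part in the differences between bins was not tested.

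Each of 7 genes, all but Tnni3, was highest in the top bin of Acta1 plus Myh3, and onset is read relative to that level. On this measure Tnnt1 came first, Tnni2 and Tnnt3 followed, then Tnnt2. Tnni1, Tnnc1 and Tnnc2 came last. A gene already high in the lowest bin reaches a given percent early, so this order is not one of induction. As a fold over the lowest bin, the bin of 300 to 1000 CPM stood at 5.36 for Tnnt2, 5.17 for Tnni1, 5.03 for Tnnc2 and 4.04 for Tnnc1. Tnnt3 was at 3.54 there, Tnnt1 at 2.80 and Tnni2 at 2.56. In the bin of 300 to 1000 CPM, Tnnt1 stood at 46.2% of its top level, Tnni2 at 30.2%, Tnnt3 at 24.5% and Tnnt2 at 11.5%. Tnnc2 was at 8.71%, Tnni1 at 7.46% and Tnnc1 at 6.68% there. Tnnt1 first passed 50% of its top level in the bin of 1000 to 3000. Tnni2, Tnnt3 and Tnnt2 did so at 3000 to 10000, and Tnni1, Tnnc1 and Tnnc2 in the top bin alone. This bin was the same in each of the 4 files for all 7 genes. The order depended on where bins were cut: with 6 bins of equal cell number, Tnnt1, Tnni2 and Tnnt3 all passed 50% in bin 5, and Tnnt2, Tnni1, Tnnc1 and Tnnc2 in bin 6. At 25% of the top level, Tnnt1 and Tnni2 shared bin 3. The separate places of Tnnt1 and Tnnt2 were thus not kept, while Tnni1, Tnnc1 and Tnnc2 were in the last group each time.

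**Figure D2:**
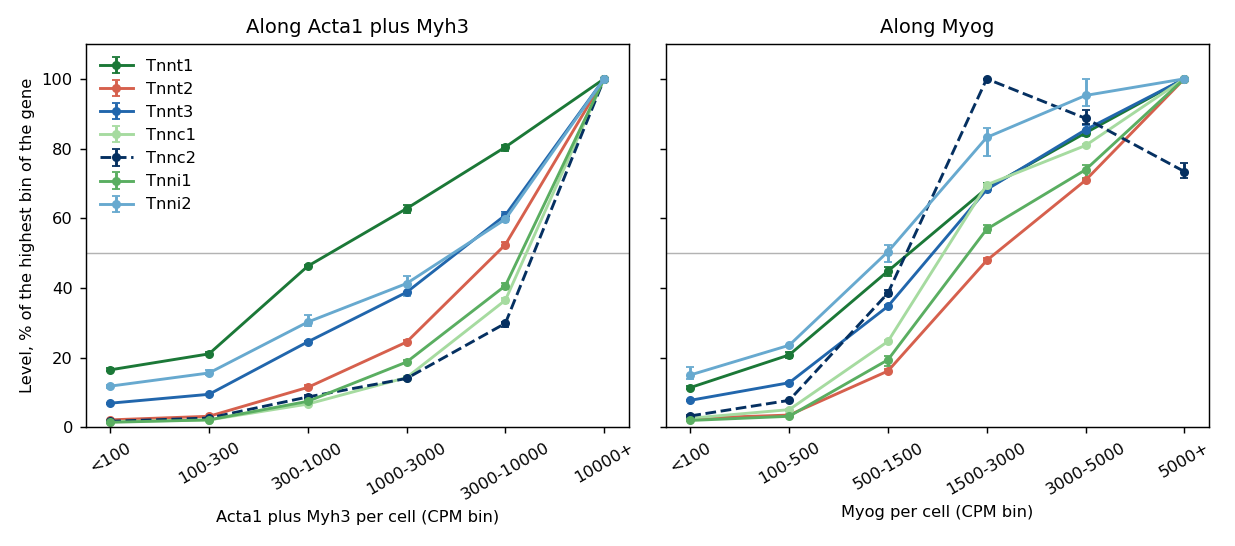
Levels of 7 troponin genes in 6 bins of cells along Acta1 plus Myh3 (left) and Myog (right), as a percent of the gene's own highest bin. Lines join means over the 4 libraries, whiskers span the libraries, and the grey line marks 50%. Tnnt1 passes 50% first on the left, and Tnnc2 (dashed) peaks before the last bin on the right.

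Tnnt1 was already well expressed in cells with little Acta1 and Myh3. It had 522, 523, 527 and 548 CPM in the lowest bin of the 4 files and 3212, 3179, 3249 and 3209 in the highest. The files of the bins, repeat libraries of the same cells, did not overlap. The fold was 6.06 (interval 5.83 to 6.31). Tnni2 rose from 87.7, 85.6, 87.0 and 93.0 CPM to 741, 765, 721 and 763, or 8.46-fold (7.72 to 9.28). Tnnt3 had a fold of 14.4 (13.9 to 15.0), from 407 to 5879 CPM. These 3 genes, 1 slow and 2 fast, had the smallest folds of the 7.

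The other 4 genes rose steeply. Tnnt2 went from 105 to 4914 CPM, a fold of 46.8 (43.4 to 50.4). Tnnc2 went from 28.0 to 1619 CPM, a fold of 57.7 (50.1 to 66.9), and Tnnc1 from 72.9 to 4412, a fold of 60.5 (55.4 to 66.2). Tnni1 had 52.2, 49.6, 51.4 and 51.4 CPM in the lowest bin of the 4 files and 3496, 3510, 3578 and 3596 in the highest, 69.3-fold (62.4 to 77.2). The intervals of Tnnc1 overlapped those of Tnnc2 and Tnni1, so their order is not resolved. Tnni3 had 1.82 CPM in the lowest and 2.34 in the highest bin, on 13 and 5.5 UMIs per file, with a fold of 1.29 (0.381 to 3.73).

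Between these bins all 7 troponins that passed the minimum had a log2 ratio of at least 1 in every file. The minimum was 50 UMIs per file in the 2 bins together. Of the 7, Tnnc2 had the fewest UMIs in the lowest bin alone, a mean of 201 per file. Of 9493 genes tested, 7.06% were higher by that rule and 23.3% lower. The median log2 ratio was 5.53 for the 7 troponins and -0.54 for all genes. With TMM factors, which scale on the bulk of the genes, the all-gene median moved to -0.13. The split of called genes then went from 23.2% higher to 39.7% higher, and the 7 troponins stayed higher. Tnni3 fell short of the minimum.

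Cells with the least Myog and the least Acta1 plus Myh3 (below 100 CPM of each, 770 cells) were looked at for early expression. Tnnt1 was there at 318 CPM (interval 301 to 337), Tnnt3 at 281 (265 to 299) and Tnni2 at 66.6 (58.7 to 75.2). These were 9.91%, 4.79% and 8.90% of their levels in the highest Acta1 plus Myh3 bin. Tnnt2 stood at 1.65%, Tnnc1 at 1.13%, Tnni1 at 1.03% and Tnnc2 at 1.02%. For comparison, 18 genes of the thin and thick filament lists that were not used for the bins were taken. Each had at least 50 UMIs in the highest Acta1 plus Myh3 bin in every file. A choice by the highest bin favours low percents. The 18 genes spread widely on this measure, with a median of 1.26%. Of these, 8 were below 1%, among them Actc1 at 0.585% and Myh1 at 0.366%. Another 4 were at 1% to 5%, such as Mylpf at 1.39%, and 6 were at 5% or more, such as Tpm2 at 9.93%, Acta2 at 14.9% and Tpm1 at 34.3%. Tnnt1, Tnnt3 and Tnni2 were thus not alone in early expression. Tnnt2, Tnnc1, Tnni1 and Tnnc2 lay near that median, which the choice of genes partly sets. Actc1 was detected in 15.0% of these cells, Tnni1 in 13.4%, Tnnc2 in 6.79% and Tnnt1 in 51.1%. No cell type without troponin was at hand, so the UMIs that free RNA gives were not measured, and low levels here cannot be told apart from it.

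Cells were also split by UMIs of the stem cell gene Pax7, which at this depth does not show that a cell has or lacks its transcript. Among these 770 cells, the 610 with a Pax7 UMI in any file had 299 CPM of Tnnt1 (280 to 319), 265 of Tnnt3 (247 to 284) and 64.3 of Tnni2 (55.7 to 74.0). The 160 without had 390 (348 to 436), 343 (303 to 386) and 75.0 (57.2 to 96.5). The intervals of Tnnt1 and Tnnt3 lay apart, with the lower level in cells with a Pax7 UMI, while those of Tnni2 overlapped. These intervals leave out variation between cells.

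On the same measure along Myog, Tnni2 and Tnnt1 stood at the highest percents in bin 3 and Tnnt2 at the lowest. Tnnc2 did not peak in the top bin. The 6 bins were below 100 CPM (1480 cells), 100 to 500 (981), 500 to 1500 (488), 1500 to 3000 (720), 3000 to 5000 (924) and 5000 or more (604). In the bin of 500 to 1500, Tnni2 was at 50.4% of its highest level, Tnnt1 at 44.8%, Tnnc2 at 38.5% and Tnnt3 at 34.7%. Tnnc1 was at 24.7%, Tnni1 at 19.4% and Tnnt2 at 16.2%. As a fold over the lowest Myog bin, Tnnc2 was highest there at 11.8, with Tnni1 at 9.79, Tnnc1 at 9.46 and Tnnt2 at 6.29. Tnnt3 was at 4.48, Tnnt1 at 3.93 and Tnni2 at 3.35. Tnnt2 was the last to pass 50%, at 3000 to 5000 CPM of Myog. The 50% step of Tnni2 fell at 500 to 1500, or 1 bin later in some files and under other settings given below. Tnnt1 passed 50% at 1500 to 3000, in the same bin as Tnnt3, Tnnc1, Tnnc2 and Tnni1. At 25%, Tnni2, Tnnt1, Tnnt3 and Tnnc2 shared the bin of 500 to 1500, and Tnnc1, Tnni1 and Tnnt2 the next. No separate early place of Tnnt1 is thus read along Myog.

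Tnnc2 alone of the 7 peaked below the top Myog bin. It peaked at 655, 645, 627 and 637 CPM in the bin of 1500 to 3000 and stood at 469, 466, 463 and 484 CPM at 5000 or more. These files did not overlap, and the intervals (615 to 668 and 446 to 496) lay apart. The files are repeat libraries of the same cells, so variation between cells or cultures is not covered. Tnnc1, its slow counterpart, went from 1414 to 2033 CPM between the same bins. At a fixed Acta1 plus Myh3 of 3000 to 10000 CPM the pattern held: Tnnc2 had 641 CPM (588 to 698) at 1500 to 3000 CPM of Myog, 528 (495 to 563) at 3000 to 5000 and 341 (312 to 371) at 5000 or more. Tnnt2 ran the other way, with 1905, 2417 and 3262 CPM in these groups of 166, 358 and 309 cells. In the top Acta1 plus Myh3 bin, Tnnc2 again fell over the same Myog bins, with 2218, 1528 and 1068 CPM. Tnnt2 showed no such rise there, with 4835, 5136 and 4868 CPM. Myog did not rise throughout along Acta1 plus Myh3, with 4466 CPM at 3000 to 10000 and 4137 in the top bin. Of the 720 cells at 1500 to 3000 CPM of Myog, 127 were in the top Acta1 plus Myh3 bin, with Tnnc2 at 2218 CPM. The peak of Tnnc2 along Myog is thus not read as an early stage.

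The converse comparison fixed Myog at 3000 CPM or more. Among these cells, Tnnt1 was at 1245 CPM (1046 to 1472) below 100 CPM of Acta1 plus Myh3, at 2193 (2036 to 2359) at 100 to 300 and at 3348 (3258 to 3439) in the top bin. Tnnc1 had 134 (74.6 to 222), 341 (281 to 410) and 4188 (4088 to 4290) in these bins. Tnni1 had 239 (156 to 349), 451 (381 to 529) and 3425 (3335 to 3517). Tnnc2 had 116 (61.3 to 199), 112 (78.9 to 155) and 1318 (1262 to 1376). All 4 genes were thus higher in the top bin than in the lower groups at high Myog. Tnnt1 spanned a narrower range than Tnnc1, Tnni1 and Tnnc2. Between the lower groups Tnnc2 did not rise, and its intervals overlapped. The lower groups held 22 and 66 cells.

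**Figure D3:**
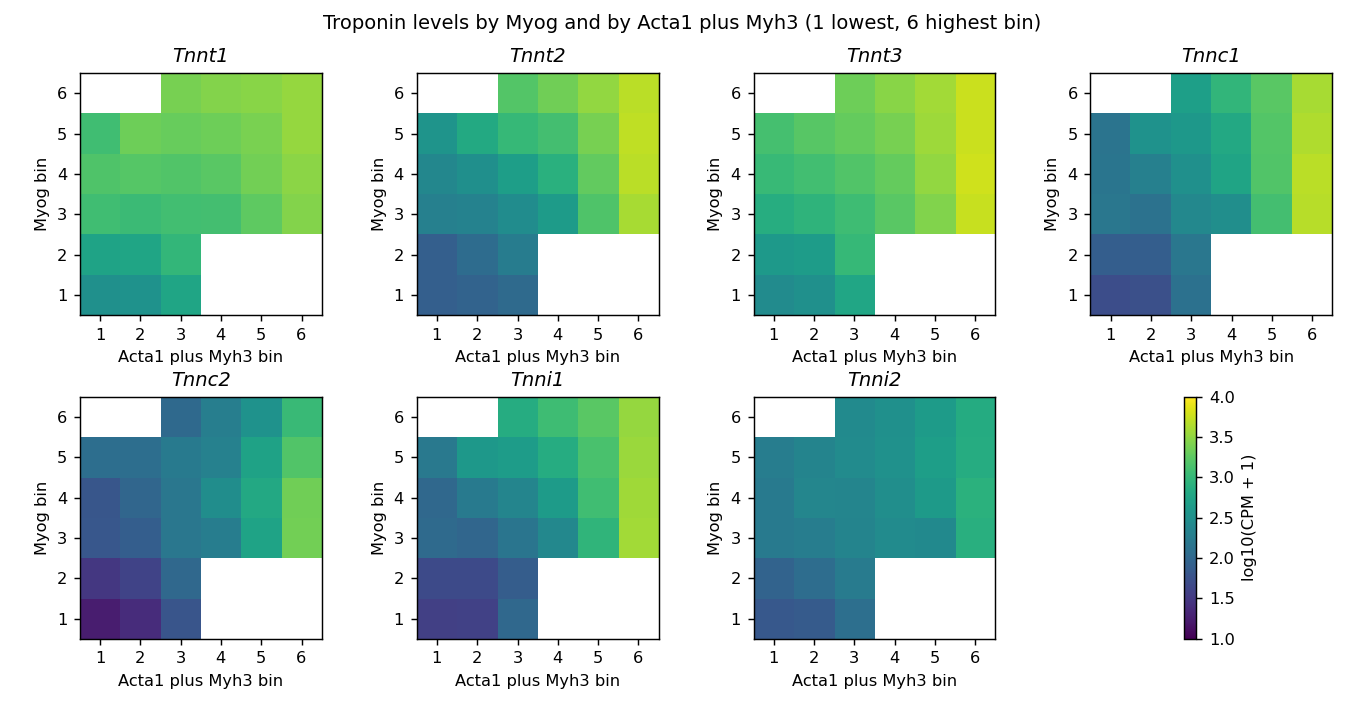
Levels of 7 troponin genes in groups of cells by Myog bin (vertical) and Acta1 plus Myh3 bin (horizontal), numbered 1 (lowest) to 6 (highest); colour is log10 of CPM plus 1, and groups under 20 cells are white. Tnnt1 is high across the Myog bins 3 to 6, whereas Tnnc1, Tnni1 and Tnnc2 brighten from left to right.

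Isoform use changed differently in each subunit. For troponin I the main isoform switched. Fast Tnni2 held 62.5% of troponin I (interval 59.5% to 65.5%) in the lowest Acta1 plus Myh3 bin, 59.7% in the second, 45.8% in the third, 31.6% in the fourth, 23.6% in the fifth and 17.4% (16.7% to 18.2%) in the highest. Files spanned 61.9% to 63.7% in the lowest and 16.8% to 17.9% in the highest bin. Both genes rose, Tnni1 by far more. Along Myog the share likewise went from 63.7% (60.4% to 67.1%) to 19.5% (18.6% to 20.4%). In the cells lowest for both axes it was 63.5% (58.7% to 68.3%). Tnni3 held 1.29% of troponin I in the lowest bin and 0.0544% in the highest, with its CPM near 2 in both.

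In troponin T the fast share hardly moved, while the slow share fell and the cardiac share grew. The level of slow Tnnt1 itself rose, from 530 to 3212 CPM, but by less than that of Tnnt2. Tnnt3 held 39.1% (38.0% to 40.2%) in the lowest and 42.0% (41.4% to 42.5%) in the highest Acta1 plus Myh3 bin. Tnnt1 went from 50.8% (49.7% to 52.0%) to 22.9% (22.5% to 23.4%). Tnnt2 went from 10.1% (9.41% to 10.8%) to 35.1% (34.6% to 35.6%) and passed Tnnt1 in the top bin. At 3000 to 10000 CPM, Tnnt1 at 29.6% and Tnnt2 at 29.5% had overlapping intervals.

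Troponin C kept a slow majority throughout. The fast share was 27.8% (24.5% to 31.2%) in the lowest, 32.4% (29.5% to 35.3%) in the third, 23.1% (22.2% to 24.0%) in the fifth and 26.8% (26.1% to 27.6%) in the highest bin. Along Myog it was 33.0% (30.9% to 35.2%) at 500 to 1500 CPM and 18.8% (17.9% to 19.7%) at 5000 or more.

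**Figure D4:**
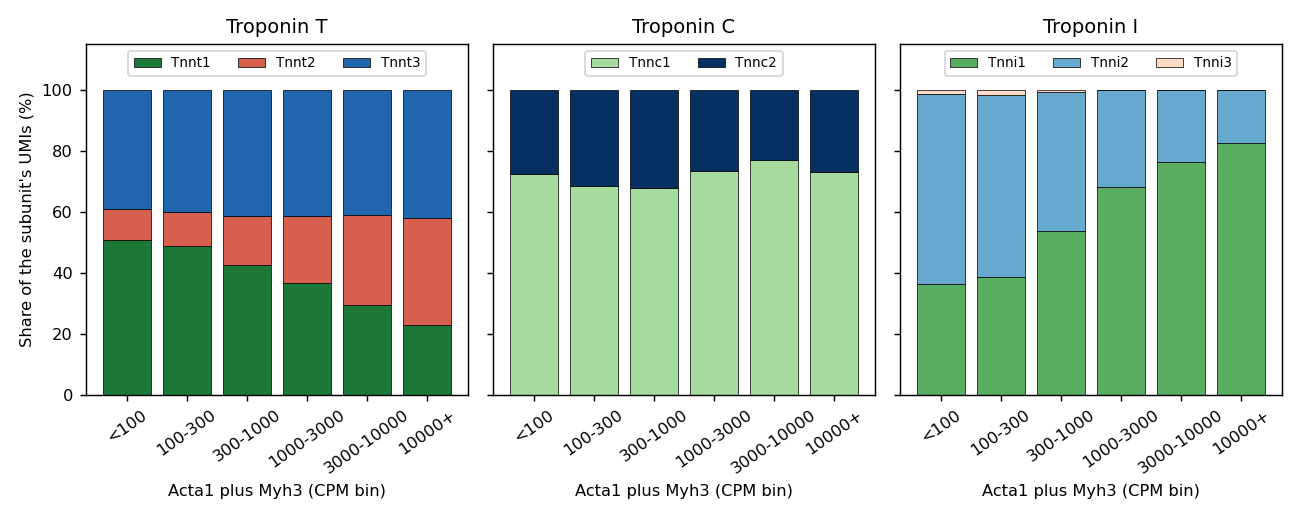
Isoform shares of troponin T, C and I in 6 bins of cells by Acta1 plus Myh3, as percent of the subunit's UMIs (means over the 4 libraries). Tnni2 shrinks from 62.5% to 17.4% of troponin I, Tnnt2 grows from 10.1% to 35.1% of troponin T, and troponin C keeps about the same split.

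The troponin I balance was also compared by transcripts of division. Cells were split by at least 100 CPM of Mki67 plus Top2a, 2 genes of proliferating cells. At Myog below 100, Acta1 was at 72.8 CPM (65.5 to 80.7) in cells above that level and 78.9 (68.1 to 90.8) in the rest, with overlapping intervals. At Myog of 1500 or more, Acta1 was at 1634 and 5134 CPM, so these groups lay at different positions on the Acta1 plus Myh3 axis, along which the fast share itself fell. At the low Myog level, fast Tnni2 held 69.6% of troponin I (65.7% to 73.7%) in 990 such cells and 52.5% (46.4% to 58.3%) in the other 490. Tnni2 itself was at 75.4 CPM (67.9 to 83.4) and 60.3 (51.0 to 70.9), with overlapping intervals, and Tnni1 at 31.2 (26.4 to 36.5) and 52.6 (43.9 to 62.5). At Myog of 1500 or more, the shares were 37.6% (35.6% to 39.7%) in 482 cells with and 21.2% (20.6% to 21.8%) in 1766 cells without. The part of the axis in this difference was not tested. In the same groups Tnnt1 had 1975 and 2583 CPM, Tnni1 567 and 1702. The part of doublets in these groups was not tested.

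Late cells did not share a single isoform balance. In the highest Acta1 plus Myh3 bin, the fast share was computed per cell with at least 10 UMIs of the subunit in every file. For troponin C the middle 80% of 406 cells ran from 2.39% to 48.8%. For troponin T it ran from 31.2% to 55.4% in 470 cells (median 42.2%), and for troponin I from 6.50% to 33.0% in 370 cells (median 15.2%). The SD between cells in 1 file was 17.9 percentage points for troponin C, where counting alone would give 8.63. It was 11.3 against 6.26 for troponin T and 12.8 against 8.13 for troponin I.

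The differences between cells were partly repeated between libraries, most for troponin C and least for troponin I. Between pairs of files the fast share per cell correlated with a mean Pearson r of 0.830 (0.814 to 0.848 over 6 pairs) for troponin C. For troponin T the value was 0.726 (0.707 to 0.738), and for troponin I 0.632 (0.569 to 0.670). The points are cells of 1 sample, and the files share these cells and may share molecules.

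**Figure D5:**
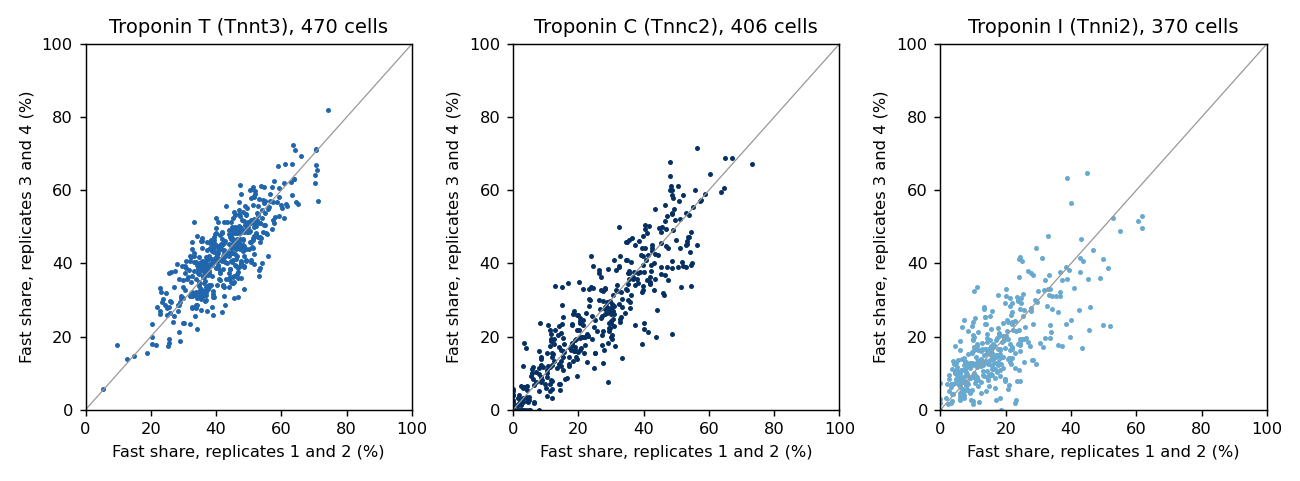
Fast share of troponin T, C and I in single cells of the highest Acta1 plus Myh3 bin, with the mean of replicates 1 and 2 on the horizontal and of replicates 3 and 4 on the vertical axis. Each point is 1 cell, the line marks equality, and troponin C spreads widest (SD 17.9 percentage points).

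Correlations between members, taken between different files on ln of UMIs plus 1, describe which isoforms went together within this bin of 471 cells. Tnnc1 and Tnni1 had r of 0.631, Tnnt2 and Tnni1 0.539 and Tnnt2 and Tnnc1 0.485. Fast Tnnc2 had 0.370 with Tnni2, 0.344 with Tnnc1 and 0.290 with Tnnt3, against 0.0236 with Tnnt2. Chromosomal neighbours had r of 0.539 for Tnni1 and Tnnt2, 0.227 for Tnni2 and Tnnt3 and -0.0358 for Tnni3 and Tnnt1. Tnnc2 repeated itself between files with r of 0.896 and Tnni2 with 0.546.

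Over all 5197 thinned cells, each member was compared with 10127 genes outside the troponins with at least 100 UMIs per file, by mean Pearson r within a file. Other troponins were left out of this ranking and were often as close or closer. Between files, Tnnt2 and Tnni1 had r of 0.845, Tnnc1 and Tnni1 0.831 and Tnnt1 and Tnnt3 0.737. Outside the troponins, Tnnt1 was most like Myog (r 0.721), Mylpf (0.713), the fast regulatory light chain of myosin, and Ttn (0.675). Tnnt3 was most like Mylpf (0.834), Acta1 (0.766) and Myog (0.763). Tnnt2 was most like Acta1 (0.827), the embryonic light chain gene Myl4 (0.805) and Actc1 (0.798). Tnni1 had the same 3 genes, at 0.825, 0.825 and 0.808. Tnnc1 had Acta1 (0.812), Mylpf (0.796) and Myl4 (0.795). Tnnc2 came nearest to the fast light chain gene Myl1 (0.624), Mylpf (0.604) and Acta1 (0.590), and Tnni2 to Mylpf (0.593), Acta1 (0.542) and Myl1 (0.527). Myog therefore appeared among the 3 nearest non-troponin genes of Tnnt1 and Tnnt3 but not of the other 5.

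The partners of troponin in the sarcomere were read in the same contrast of the highest against the lowest Acta1 plus Myh3 bin, from lists that include the binning genes themselves. Some genes passed the minimum through the highest bin alone, such as Myh7, at 0.908 CPM in the lowest and 139 in the highest bin. Casq2 (1.54 CPM in the lowest bin) and Cacna1s (1.43) did likewise. Such genes could only be called higher, so the counts below were partly fixed by the minimum. Over all genes tested, 7.06% were higher and 23.3% lower. Of 11 thin filament genes 10 were tested, with 9 higher and 1 lower. Actc1, the cardiac actin, had a log2 ratio of 6.79 and Acta1 one of 8.86, against 1.38 for tropomyosin Tpm1 and -1.35 for Tpm3, the 1 lower gene. All 10 tested genes of 15 in the thick filament were higher, from Myh3 (9.19) and Myh1 (7.78) down to Myl6b (3.90) and Mybpc1 (1.12). Of 14 calcium handling genes, 12 were tested and 11 were higher, with Casq2 (7.33) and Cacna1s (5.53) at the top, Jph2 at 1.14 and Atp2a2 below the fold at 0.88. Of 18 regulators, 8 were higher and 4 lower, the latter near the share of all genes, among them Mef2c at 6.36 and Myog at 3.83, Nfatc1 at -2.38 and Myf5 at -2.39. Against these, the log2 ratios of Tnnt1 (2.60), Tnni2 (3.07) and Tnnt3 (3.85) lay below that of Myog or near it, and those of Tnnt2 (5.53), Tnnc2 (5.80), Tnnc1 (5.90) and Tnni1 (6.09) above it.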

How the data were processed

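The authors deposited matrices of whole-number UMI counts, not normalized, and the file headers name Cell Ranger 7.1.0. The submitters' processing notes name Cell Ranger 3.1.0 and the builds mm10 and GRCm39, with no role. The annotation, barcode calling and treatment of intronic reads are not given in the sources used here. Gene positions were looked up by Ensembl gene ID in GENCODE M21 (GRCm38), which may not be the authors' build.

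Cells were kept if present in all 4 files with, on average, at least 1000 genes and under 10% mitochondrial UMIs. They were thinned to 5000 UMIs per file, binned by mean CPM over files, and their UMIs summed per bin and file. Log2 ratios are of CPM plus 1. Their calculation, tested on simulated data for 9486 genes, recovered 99.0% of 192 genes changed by 2 on the log2 scale. The simulated counts were independent Poisson draws without variation between cells, and the change lay above the cut of 1. The figure thus checks the calculation only, not the calls in these data. Scrublet in scanpy 1.11.5 marked 0 of 5481 cells as doublets, with the expected rate set at 5%. Whether the caller worked was not tested, so this does not show that doublets are absent. None were removed. TMM factors came from edgeR 4.0.16. With 1 sample, no test was possible. Named genes are the 8 troponins, the 2 highest and 2 lowest of each list, and the 3 genes most alike to each troponin. The members, lists and bins were chosen with earlier results of these data known, and the groups by Pax7 and by Mki67 plus Top2a after the values were seen.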

Additional observations from a re-analysis of the deposited data

Results flagged for a closer look

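Among 71 values compared over the 4 files, 5 had a file far from the other 3, where chance alone flags about 5%. The share of thinned cells with Tnni2 was 51.7% in replicate 2 and 52.3% to 52.4% in the others. In cells with 500 to 1500 CPM of Myog, the fast share of troponin I was 41.1% in replicate 3 against 37.1% to 37.5%. Replicate 3 also stood apart in the fast share of troponin C at 3000 to 5000 CPM of Myog, with 25.1% against 25.9% in the others. The fast share of troponin T was 39.5% in replicate 4 against 40.2% to 40.3% at 100 to 300 CPM of Acta1 plus Myh3, and 41.3% in replicate 3 against 41.5% at 1000 to 3000 CPM. The files hold the same cells, so these gaps describe the libraries.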

How the results depend on the processing

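Of 327 comparisons of the main results with an alternative, 283 stayed within their limit and 44 moved. The limit was the counting interval for levels and shares, and the same bin for onset. It was the range over file pairs for isoform balance and a 1.5-fold range for gene counts. Levels, shares, bin numbers and gene counts cannot change sign, so no reversal could be found for them. The comparisons that left out 1 file used the same cells. The stricter cell filter gave 1267 CPM for Tnnt1, 1008 for Tnnt2, 1620 for Tnnt3, 727 for Tnnc1, 269 for Tnnc2, 608 for Tnni1 and 239 for Tnni2. Averaging CPM over cells gave 1384, 1092, 1722, 782, 272, 668 and 244 in the same order. Without the highest doublet scores Tnnc1 was at 803 and Tnnc2 at 295 CPM. The fast share of troponin I was 28.1% with the stricter filter, and in the highest bin that filter gave 41.4% for troponin T and 25.6% for troponin C. Unthinned cells gave 27.8% for troponin C there, and 6 bins of equal cell number gave 25.8% for troponin C and 18.9% for troponin I. In those equal bins along Acta1 plus Myh3, the first bin past 50% was 5 for Tnnt1 and 6 for Tnnt2. At 25% in place of 50% it was bin 3 for Tnnt1 and Tnni2, 4 for Tnnt3 and 5 for Tnnc1, Tnnc2 and Tnni1. Along Myog, 25% was first passed in bin 3 by Tnnt1, Tnnt3 and Tnnc2 and in bin 4 by Tnnt2. There the 50% bin of Tnni2 became 4 with the stricter filter, 3000 UMIs, no thinning or equal bins, and that of Tnni1 became 5 with the stricter filter or equal bins. Leaving out 1 file gave bin 3 (without replicate 2) to 4 for Tnnc2. Genes lower in the highest bin numbered 1462 with TMM factors, and median-ratio factors gave 1025 higher and 1395 lower. All 670 genes called higher stayed so under each scaling, and the log2 ratios of the 7 troponins moved up, for example from 2.60 to 3.03 (TMM) and 3.09 (median-ratio) for Tnnt1. The cause of these shifts was not tested. No paired analysis was possible because there is 1 group and its files hold the same cells. Depth limits Tnni3, whose change between bins was not detectable at these counts.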

Other observations

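The 463 barcodes left out for few genes or a high mitochondrial share (median 40.9%) also held troponin UMIs. With mitochondrial UMIs excluded from the totals, Tnnt3 was at 844 CPM in them and 1810 in kept cells, Tnnt1 at 523 and 1378, and Tnnt2 at 642 and 1154. Tnnc1 was at 675 and 844 CPM, Tnni1 at 447 and 703, Tnnc2 at 133 and 313 and Tnni2 at 94.7 and 261. Tnnc1 thus came closest to its level in kept cells, and Tnni2 was furthest below it together with Tnnt1. These values rest on 51 (Tnni2) to 455 (Tnnt3) UMIs per file.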
